A study of Mus musculus with 8 samples.

Results

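Genes of the complement, coagulation and fibrinolysis systems, together with serpin protease inhibitors, were followed in mouse embryonic stem cells (ESCs) and in cells resembling testis somatic cells and primordial germ cells that were derived from ESCs. Of 42 listed genes, 41 were found among the 46078 Ensembl gene IDs that were counted, and Klkb1 was not analysed here. The members were chosen by their place in these systems and with the read counts of these same libraries in all 4 cell groups known, so the levels and calls of the members are given as a description and support nothing beyond it.

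RNA sequencing was performed on 8 libraries, 2 for each group, of cells from male C57BL/6 lines. The tcESCs are XY ESCs with the tesco-cfp reporter, in which a Sox9 enhancer drives CFP. The tc;Sf1ESCs are 1 drug-selected clone of them that also carries an Sf1 transgene (mouse Nr5a1, a nuclear receptor of the gonad and adrenal) expressed from an expression plasmid. SCLCs are CFP-positive cells sorted on day 12 of testicular differentiation of the tc;Sf1ESCs, so they share the reporter and the transgene with that clone. In a comparison of tc;Sf1ESCs with tcESCs, the transgene and other differences of the clone cannot be told apart. In a comparison of SCLCs with tcESCs, both also come together with differentiation. The todPGCLCs come from a different XY line with the Prdm1-gfp reporter and were sorted from testicular organoids on day 6, organoids that also hold differentiated tc;Sf1 cells. The gate of that sort is given as GFP with CD49f in one place of the study and GFP with SSEA1 in another. For todPGCLCs, line and cell type cannot be told apart in a comparison with tcESCs, nor in one with SCLCs, which also carry the transgene.

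Library totals on genes ran from 25411033 to 30680191 counts, at which 3 counts correspond to 0.0978 to 0.118 CPM (counts scaled to the total on genes of the library). Nr5a1 itself had 1 and 0 counts in tcESCs, 52 and 30 in tc;Sf1ESCs, 341 and 535 in SCLCs and 6 and 5 in todPGCLCs. The 2 SCLC libraries differed most from each other, at a chi-square over all genes of 30.65 per degree of freedom, where the other pairs had 1.437 to 9.857. The Sertoli cell list of 9 markers summed to 469.8 to 476.9 CPM in SCLCs, 14.53 to 15.43 CPM in tc;Sf1ESCs, 16.41 to 18.74 CPM in tcESCs and 118.9 to 145.4 CPM in todPGCLCs, and 6 of its 8 tested markers were called higher in SCLCs than in tc;Sf1ESCs and 1 lower. The SCLC sum was mostly Gata4, which endoderm also expresses, at 11011 and 12551 counts, Sox9 had 206 and 130, and Amh had 10 and 22 against 17 and 24 in tc;Sf1ESCs, while Fshr was at 0. The summed level of 8 parietal endoderm markers, led by the basement membrane collagen gene Col4a1, was 46680 to 46930 CPM in SCLCs and 581.7 to 867.5 CPM in the other groups. The sum of 12 visceral endoderm and yolk sac markers, led by the scavenger receptor gene Cubn, was 2602 to 4556 CPM in SCLCs and 44.15 to 390.7 CPM elsewhere. Outside SCLCs the sum was mostly Rhox5, whose mean was higher in todPGCLCs, at 348.5 CPM, than in SCLCs, at 245.2 CPM. No marker of either endoderm list was at 0 in SCLCs, and 11 of the 12 visceral endoderm markers had more than 3 counts in both libraries. The exception was Trf, with 1 and 2 counts in SCLCs and 5 and 3 in tcESCs. The hepatocyte list summed to 2.887 to 3.396 CPM there, with 1 Alb count in each library, and to 0.5648 to 5.903 CPM elsewhere. The macrophage list, mostly Cd68 and with Ptprc, Adgre1 and Fcgr1 at 0 in SCLCs, summed to 54.86 to 55.86 CPM there and 19.37 to 33.93 CPM elsewhere, and the megakaryocyte list, with Pf4 and Gp6 at 0 in SCLCs, to 2.715 to 3.698 and 0.3613 to 5.949 CPM. The endothelial list summed to 150.4 to 153.6 CPM in SCLCs, 118.9 to 148.6 CPM in the ESC groups and 274.2 to 326.1 CPM in todPGCLCs. Its genes differed in direction between tc;Sf1ESCs and SCLCs, with mean levels of 0.0928 and 49.9 CPM for Cdh5, 0.658 and 47.4 for Esam, 93.9 and 46.6 for Pecam1 and 27.4 and 4.79 for Tek. The germ cell list summed to 1037 to 1059 CPM in todPGCLCs and 411.1 to 568.1 CPM elsewhere. The part of these cell types in the results was not tested. In bulk libraries, fewer cells of a type and less RNA per cell cannot be told apart.

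Blood clotting is a cascade of proteases. Tissue factor on a cell surface starts it, factors such as F10 and F5 carry it to prothrombin, and thrombin cuts fibrinogen into fibrin and signals to cells through protease-activated receptors. Tissue factor pathway inhibitor, the protein C system and antithrombin limit it, and plasmin, released from plasminogen by the activators tPA and uPA, dissolves fibrin. Complement is a parallel cascade that marks and lyses cells, and host cells carry regulators such as Cd55 and Cd59a against it. Serpins are suicide inhibitors of proteases, apart from members such as Serpinh1, which is a collagen chaperone. Most soluble factors are made by the liver in the adult and in part by the visceral endoderm of the yolk sac in the embryo. Parietal endoderm is known for tPA and thrombomodulin, and Sertoli cells secrete plasminogen activators.

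A gene was tested where its mean count over the 8 libraries was above 10, and called higher or lower with a fold change above 2 and an adjusted p under 0.05 in edgeR's quasi-likelihood test, adjusted over all 16707 genes tested. Of the 41 members, 26 were tested. The other 15 did not reach that mean and are described by their counts. Among the tested members 23 were called in at least 1 of 5 comparisons, as were 61.8% of all genes, and the exceptions were C4b, Cd55 and Serpine2.

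In SCLCs against their parental tc;Sf1ESCs, 18 tested members were called higher and 2 lower. Of all genes, 24.2% were called higher and 18.0% lower in this comparison. The median log2 fold change was 2.83 over the tested members and 0.02 over all genes tested. The 18 were the clotting factors F2, F5, F10 and Fgb, the receptors F2r, F3, Thbd and Procr, the anticoagulants Proc and Tfpi, the fibrinolysis genes Plat, Plau, Plaur and Serpinf2, the complement genes C2 and Serping1, and the serpins Serpinf1 and Serpinh1. Of the 18, F10, Fgb and Serpinf2 passed the count filter only through their SCLC counts. A call of higher in SCLCs was thus close to fixed in advance for them, and they enter the counts and medians of each comparison with SCLCs. The 2 members called lower were Vwf and Pros1. Against tcESCs the counts were 19 higher and 2 lower (F8 and Vwf), where 42.6% of all genes were called, 24.4% higher and 18.2% lower, and the median over the members was 2.74. Both comparisons use the same SCLC libraries.

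Fewer members were called between the other groups. In tc;Sf1ESCs against tcESCs, 5 were higher (Vwf, Thbd, Pros1, Plau and Serpinh1) and 2 lower (Proc and Plaur), beside 6.13% and 5.85% of all genes. In todPGCLCs against tcESCs, 9 were higher and 5 lower, beside 18.1% and 11.2%. In SCLCs against todPGCLCs, 16 were higher and 2 lower (F5 and Vwf), beside 19.5% and 18.5%. The medians of the members were 0.26, 0.60 and 2.20 on the log2 scale in these 3 comparisons. Nothing about the members is read from these shares, since the list was proposed with the same values known.

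**Figure D1:**
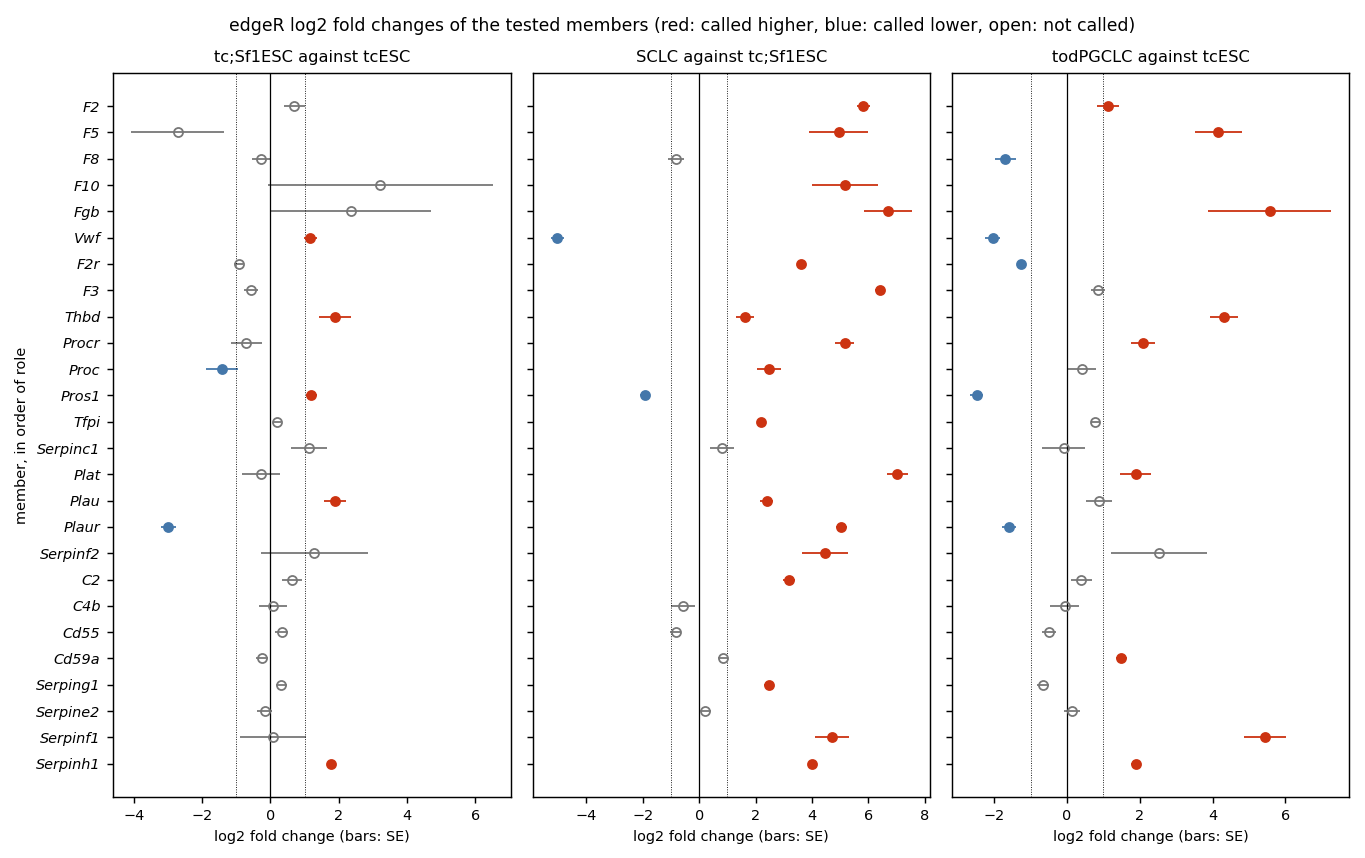
Log2 fold changes from the edgeR fit (x axis, bars are standard errors) of the tested members (y axis, ordered by role) in 3 comparisons, with dotted lines at a fold change of 2. Filled points were called and open points were not. In SCLCs against tc;Sf1ESCs 18 points are red on the right and 2, Vwf and Pros1, are blue on the left, and F10 has no point in todPGCLCs against tcESCs because it had no count in either group.

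The summed level of the 41 members was 449.2 and 457.8 CPM in tcESCs, 752.1 and 742.3 in tc;Sf1ESCs, 4114 and 3945 in SCLCs and 523.6 and 522.9 in todPGCLCs. Serpinh1 made up 2450 and 2462 CPM of the SCLC sums. Without it the 2 SCLC libraries still stood at 1664 and 1483 CPM, above the 310.2 to 590.1 CPM of the other 6.

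Among the coagulation proteases and cofactors, F2 (prothrombin) was the main one in SCLCs. F2, on the minus strand of chromosome 2 at 91625320 to 91636414 (GRCm38), was measured at 1.46 and 1.14 CPM in tcESCs, 2.62 and 1.55 in tc;Sf1ESCs, 131 and 96.9 in SCLCs and 3.09 and 2.86 in todPGCLCs. Both SCLC libraries lay far above the other 6, which ranged over less than 2 CPM. The fitted fold change in SCLCs was 56.5 against tc;Sf1ESCs (log2 5.82 ± 0.23, SE) and 92.0 against tcESCs. F2 was also called higher in todPGCLCs than in tcESCs, at a log2 fold change of 1.13 ± 0.30 (SE). That call was lost without tcESC replicate 2 (log2 0.91) and without todPGCLC replicate 1 (log2 1.08).

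F5, the cofactor that speeds the activation of prothrombin, followed another pattern. It was measured at 0.472 and 0.0978 CPM in tcESCs, 0 and 0.0723 in tc;Sf1ESCs, 1.28 and 1.20 in SCLCs and 3.05 and 7.30 in todPGCLCs. The todPGCLC libraries were the highest and did not overlap with the SCLC libraries, but they differed from each other more than 2-fold. F5 was called higher in todPGCLCs than in tcESCs (log2 4.16 ± 0.65, SE) and lower in SCLCs than in todPGCLCs (log2 -1.92 ± 0.52, SE). The second call was lost without todPGCLC replicate 2 (log2 -1.17). In SCLCs against tc;Sf1ESCs the 69 counts against 2 gave a ratio of 33.3, with an exact 95% counting interval of 8.87 to 280.2. In SCLCs against tcESCs the call was lost without tcESC replicate 2 (log2 1.41). The F5 locus overlaps the processed pseudogene Gm16588 on the same strand, so F5 can be undercounted.

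F8, the cofactor of F9, moved the other way at a low level. It ranged from 2.77 to 4.13 CPM in tcESCs, 2.58 to 3.07 in tc;Sf1ESCs, 1.47 to 1.65 in SCLCs and 0.944 to 1.28 in todPGCLCs. F8 was called lower in todPGCLCs than in tcESCs (log2 -1.70 ± 0.29, SE) and in SCLCs than in tcESCs (log2 -1.07 ± 0.28, SE). The latter call was lost without tcESC replicate 1 (log2 -0.80) or SCLC replicate 1 (log2 -0.98). The F8 locus overlaps Fundc2 on the opposite strand and 2 processed pseudogenes, Gm8522 on the same strand and Gm6039 on the opposite strand. Its counts are thus uncertain, also where strand was used in counting.

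F10, the protease that activates prothrombin, had 14 and 68 counts in SCLCs, 0 and 2 in tc;Sf1ESCs and none in tcESCs or todPGCLCs. Against tcESCs, whose libraries are at 0, SCLCs were at least 13.3-fold higher, computed with 3 counts per library as the floor. The 2 SCLC libraries differed 4.42-fold in F10 (exact 95% counting interval 2.46 to 8.52). DESeq2 did not call F10 in any of the comparisons with SCLCs.

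The promoters of members were searched on both strands, over the 250 bases before the gene start in RefSeq (GRCm38.p6), for the letters CAAGGTCA (bound by NR5A1, the product of the transgene), AGATAA (bound by factors of the GATA family), CAAAGTCCA (HNF4A) and TGTTTAC (FOXA), and for the palindromic HNF1 motif. Of the 41 members, 29 were in the promoter table. CAAGGTCA was found in 1 of the 29, F10, and in 1.33% of 32851 promoters. AGATAA was found in Serpinf2, C6 and Serpinf1 and in 9.99% of all promoters, and TGTTTAC in F11 and in 3.17%. The HNF1 and HNF4A letters were in none of the 29, beside 0.00913% and 0.384% of all promoters. Matches are a description of these letters and not of binding. The promoter of F10 is shown as the one with the letters of the transgene's product, which lie in capitals on the minus strand of the sequence and begin 30 bases before the start, and that of F3 as one of the clotting genes called higher in SCLCs, with none of the motifs.
F10 (chr8:13037058-13037307, plus strand): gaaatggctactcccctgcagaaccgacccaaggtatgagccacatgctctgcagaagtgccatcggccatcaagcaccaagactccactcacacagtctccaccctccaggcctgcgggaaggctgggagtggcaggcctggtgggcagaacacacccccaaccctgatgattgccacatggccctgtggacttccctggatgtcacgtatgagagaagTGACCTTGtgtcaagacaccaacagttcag
F3 (chr3:121723287-121723536, plus strand): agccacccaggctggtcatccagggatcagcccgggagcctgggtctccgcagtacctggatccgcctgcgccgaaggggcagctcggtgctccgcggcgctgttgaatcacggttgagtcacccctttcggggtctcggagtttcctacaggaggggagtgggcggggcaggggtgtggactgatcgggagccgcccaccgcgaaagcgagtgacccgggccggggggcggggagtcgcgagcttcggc
In tc;Sf1ESCs, which carry the transgene, F10 had 0 and 2 counts and F3 had 108 and 102.

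The remaining proteases and cofactors had low counts and were not tested. F9, the hemophilia B factor, had no count in any library, which allows a level of up to 0.0978 to 0.118 CPM. F7 had 0 to 4 counts per library, F11 had 2 counts in 1 SCLC library only, F12 had 0 to 10, and F13a1 and F13b, the subunits of the fibrin-crosslinking enzyme, had 0 to 6 and 0 to 3. Kng1 (kininogen) had 15 and 22 counts in todPGCLCs and 2 to 13 in the others. In SCLCs the proteases and cofactors with more than 10 counts in both libraries were F2, F5, F8 and F10.

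Of the fibrinogen chains, the beta chain gene Fgb had counts above the floor in SCLCs and the others barely did. Fgb had 38 and 93 counts in SCLCs, 7 and 5 in todPGCLCs, 1 and 0 in tc;Sf1ESCs and none in tcESCs. Relative to tcESCs, Fgb was at least 21.5-fold higher in SCLCs and at least 2.05-fold higher in todPGCLCs. The call of Fgb in todPGCLCs was lost without either tcESC library or without todPGCLC replicate 1. Fga reached 2 and 6 counts in SCLCs, and Fgg 3 and 5 there against 14 and 18 in todPGCLCs. The 3 chains are secreted as 1 molecule, and no group had more than 10 counts in both libraries for more than 1 of them.

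Vwf, which carries F8 in plasma and tethers platelets, was the member with the largest fall in SCLCs against both ESC groups. It was measured at 36.5 and 35.9 CPM in tcESCs, 79.8 and 81.8 in tc;Sf1ESCs, 2.91 and 1.92 in SCLCs and 11.4 and 7.003 in todPGCLCs. The 4 groups did not overlap, with the order tc;Sf1ESCs, tcESCs, todPGCLCs and SCLCs from high to low. The level was 32.6-fold lower in SCLCs than in tc;Sf1ESCs (log2 -5.02 ± 0.24, SE), 4.14-fold lower in todPGCLCs than in tcESCs (log2 -2.05 ± 0.20, SE) and 2.26-fold higher in tc;Sf1ESCs than in tcESCs (log2 1.17 ± 0.19, SE). The median log2 fold change of the genes of chromosome 6, where Vwf lies, was -0.32 in tc;Sf1ESCs against tcESCs, opposite in sign to that of Vwf.

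The clotting receptors were all called higher in SCLCs against both ESC groups. F3 (tissue factor, the cell-surface trigger of clotting), on chromosome 3 at 121723537 to 121735048, was measured at 6.22 and 5.54 CPM in tcESCs, 4.17 and 3.69 in tc;Sf1ESCs, 378.5 and 268.5 in SCLCs and 10.9 and 11.4 in todPGCLCs. Its fitted fold change in SCLCs was 85.0 against tc;Sf1ESCs (log2 6.41 ± 0.19, SE) and 31.8 against todPGCLCs (log2 4.99 ± 0.17, SE). In todPGCLCs against tcESCs F3 had a log2 fold change of 0.85 ± 0.18 (SE), under the fold limit.

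F2r (the thrombin receptor PAR1), on chromosome 13, was measured at 46.9 and 47.3 CPM in tcESCs, 24.4 and 24.7 in tc;Sf1ESCs, 331.1 and 250.6 in SCLCs and 19.3 and 22.3 in todPGCLCs. It was the member of this group with the highest level in ESCs, and no groups overlapped. The log2 fold change was 3.61 ± 0.14 (SE) in SCLCs against tc;Sf1ESCs and -1.25 ± 0.13 (SE) in todPGCLCs against tcESCs, both called. In tc;Sf1ESCs against tcESCs it was -0.92 ± 0.13 (SE), which did not reach the fold limit.

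Procr, the endothelial protein C receptor, was measured at 0.590 and 0.293 CPM in tcESCs, 0.231 and 0.289 in tc;Sf1ESCs, 9.51 and 8.80 in SCLCs and 2.14 and 1.77 in todPGCLCs. Both differentiated groups lay above both ESC groups. Procr was called higher in SCLCs than in tc;Sf1ESCs (log2 5.15 ± 0.33, SE) and in todPGCLCs than in tcESCs (log2 2.10 ± 0.33, SE). Thbd (thrombomodulin, which turns thrombin toward protein C) ranged from 0.163 to 0.275 CPM in tcESCs, 0.540 to 1.05 in tc;Sf1ESCs, 2.34 to 2.47 in SCLCs and 4.37 to 4.79 in todPGCLCs. The order of the 4 groups was therefore without overlap, and its highest level was in todPGCLCs. Thbd was called higher in SCLCs than in tc;Sf1ESCs (log2 1.63 ± 0.33, SE) and in todPGCLCs than in tcESCs (log2 4.31 ± 0.39, SE). The call in tc;Sf1ESCs against tcESCs (log2 1.89 ± 0.46, SE) was lost without tcESC replicate 2 (log2 1.51) or tc;Sf1ESC replicate 2 (log2 1.30).

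**Figure D2:**
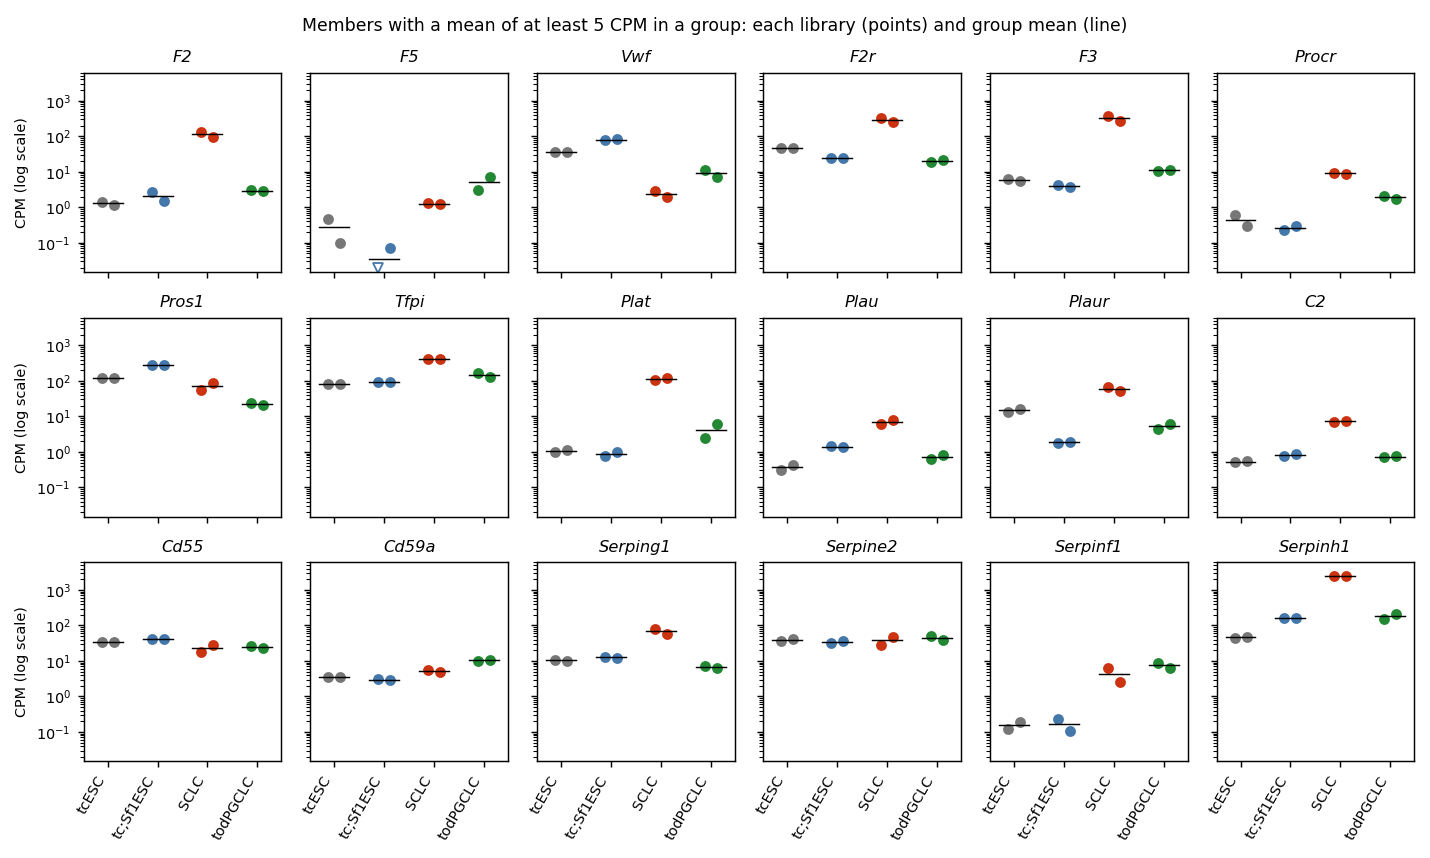
Level in CPM (log y axis) in each of the 8 libraries (points, by group on the x axis) of the 18 members with a mean of at least 5 CPM in a group, with the group mean as a line and a library without counts as an open triangle at the bottom. F2, F3, Plat and Serpinh1 stand in SCLCs above all other groups, Vwf and Pros1 are highest in tc;Sf1ESCs, F5 is highest in todPGCLCs, and Serpine2 lies at 28.7 to 50.8 CPM in all libraries.

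Among the anticoagulants, Tfpi rose and Pros1 fell in SCLCs against tc;Sf1ESCs. Tfpi (tissue factor pathway inhibitor, which blocks the F3 complex) was measured at 83.0 and 82.1 CPM in tcESCs, 94.1 and 92.8 in tc;Sf1ESCs, 419.1 and 415.7 in SCLCs and 172.3 and 125.0 in todPGCLCs. The groups did not overlap, and SCLCs were highest. The log2 fold change was 2.20 ± 0.13 (SE) in SCLCs against tc;Sf1ESCs, and in todPGCLCs against tcESCs it was 0.78 ± 0.13 (SE), which was not called.

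Pros1 (protein S, the cofactor of activated protein C) was measured at 121.2 and 123.4 CPM in tcESCs, 281.7 and 276.2 in tc;Sf1ESCs, 55.3 and 86.4 in SCLCs and 24.6 and 21.5 in todPGCLCs. It was highest in tc;Sf1ESCs and lowest in todPGCLCs, with no overlap between groups. Pros1 was called higher in tc;Sf1ESCs than in tcESCs (log2 1.20 ± 0.17, SE), lower in SCLCs than in tc;Sf1ESCs (log2 -1.93 ± 0.17, SE) and lower in todPGCLCs than in tcESCs (log2 -2.48 ± 0.18, SE). Between SCLCs and tcESCs it had a log2 fold change of -0.73 ± 0.17 (SE), not called, and without SCLC replicate 2 it was called at -1.08. Pros1 lies on chromosome 16, whose genes had a median log2 fold change of -0.46 in tc;Sf1ESCs against tcESCs.

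Proc, the zymogen of activated protein C, ranged from 1.22 to 1.30 CPM in tcESCs, 0.424 to 0.506 in tc;Sf1ESCs, 1.55 to 3.47 in SCLCs and 1.73 to 1.82 in todPGCLCs. SCLCs and todPGCLCs overlapped. Proc was called lower in tc;Sf1ESCs than in tcESCs (log2 -1.41 ± 0.46, SE), a call lost without any 1 of the tcESC, tc;Sf1ESC or todPGCLC libraries, at log2 fold changes of -1.58 to -1.32, and in the fit without todPGCLCs. It was called higher in SCLCs than in tc;Sf1ESCs (log2 2.47 ± 0.43, SE). Its call in SCLCs against tcESCs (log2 1.06 ± 0.37, SE) was lost without SCLC replicate 2 (log2 0.36), and also without either tcESC or tc;Sf1ESC library, with DESeq2 (log2 1.04), with the 4 libraries compared alone (log2 1.01) and with library totals (log2 0.99). Serpinc1 (antithrombin) ranged from 0.157 to 1.24 CPM over all libraries and was called higher in SCLCs than in tcESCs (log2 1.95 ± 0.49, SE). The Serpinc1 locus overlaps Zbtb37 on the opposite strand and the gene model Gm37729 on the same strand, so its counts are uncertain. Serpind1 (heparin cofactor II) had 2 to 8 counts in every library.

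The fibrinolysis genes held the largest fitted rise of any member with at least 5 CPM. Plat (tPA, the tissue plasminogen activator), on chromosome 8 at 22757727 to 22782844, was measured at 1.02 and 1.14 CPM in tcESCs, 0.771 and 1.01 in tc;Sf1ESCs, 105.7 and 121.2 in SCLCs and 2.397 and 6.14 in todPGCLCs. The SCLC libraries lay above the other 6 and near each other, whereas the todPGCLC libraries differed from each other. The fitted fold change was 130.2 in SCLCs against tc;Sf1ESCs (log2 7.02 ± 0.38, SE), and in todPGCLCs against tcESCs it was 3.71 (log2 1.89 ± 0.43, SE), both called. The genes of chromosome 8 had a median log2 fold change of 0.57 in SCLCs against tcESCs and of 0.03 in SCLCs against tc;Sf1ESCs.

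Plau (uPA, the urokinase-type activator) was measured at 0.315 and 0.424 CPM in tcESCs, 1.43 and 1.34 in tc;Sf1ESCs, 6.19 and 7.84 in SCLCs and 0.617 and 0.828 in todPGCLCs. It was called higher in tc;Sf1ESCs than in tcESCs (log2 1.89 ± 0.33, SE) and in SCLCs than in tc;Sf1ESCs (log2 2.39 ± 0.25, SE). Plaur, the receptor that holds uPA on the cell surface, moved differently between the ESC groups. It was measured at 13.5 and 16.6 CPM in tcESCs, 1.81 and 1.95 in tc;Sf1ESCs, 67.2 and 53.1 in SCLCs and 4.50 and 5.99 in todPGCLCs. Plaur was 7.90-fold lower in tc;Sf1ESCs than in tcESCs (log2 -2.98 ± 0.21, SE), so that its log2 fold change in SCLCs was 5.04 ± 0.21 (SE) against tc;Sf1ESCs and 2.06 ± 0.17 (SE) against tcESCs. In todPGCLCs against tcESCs it was called lower at -1.60 ± 0.18 (SE). The ligand gene Plau and the receptor gene Plaur were thus called in opposite directions between tc;Sf1ESCs and tcESCs and in the same direction in SCLCs.

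Plg, the plasminogen on which both activators act, had 16 and 29 counts in SCLCs, 3 and 3 in todPGCLCs and none in the ESC libraries, which places it at least 7.14-fold higher in SCLCs than in tc;Sf1ESCs. The Plg locus overlaps Slc22a3 on the opposite strand. Serpinf2 (alpha-2-antiplasmin, the inhibitor of plasmin) had 33 and 84 counts in SCLCs, 11 and 2 in todPGCLCs and 0 to 3 in the ESC libraries. The ratio of SCLCs to tc;Sf1ESCs was 22.6 with an exact 95% counting interval of 9.40 to 70.8. Serpinf2 and Serpinf1, which lie near each other on chromosome 11, both have an AGATAA motif in the promoter (capitals, as TTATCT where it lies on the minus strand of the printed sequence), beginning 230 and 137 bases before the start. The share of members with this motif, 10.3% of 29, is near the 9.99% of all promoters.
Serpinf2 (chr11:75439502-75439751, minus strand): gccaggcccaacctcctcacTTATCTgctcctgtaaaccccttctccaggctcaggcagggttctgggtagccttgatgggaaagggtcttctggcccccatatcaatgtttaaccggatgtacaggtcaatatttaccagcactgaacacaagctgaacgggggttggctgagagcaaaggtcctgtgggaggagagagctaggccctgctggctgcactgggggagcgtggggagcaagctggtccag
Serpinf1 (chr11:75422624-75422873, minus strand): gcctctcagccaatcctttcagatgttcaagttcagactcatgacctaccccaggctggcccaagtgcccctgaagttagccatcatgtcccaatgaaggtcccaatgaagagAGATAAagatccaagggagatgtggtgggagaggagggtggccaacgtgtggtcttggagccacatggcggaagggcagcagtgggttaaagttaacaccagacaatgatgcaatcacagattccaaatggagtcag
The third member with these letters, C6, had no count in SCLCs.

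Serpinf1 (PEDF, a secreted serpin without protease inhibition that is known to restrain blood vessel growth) was measured at 0.118 and 0.196 CPM in tcESCs, 0.231 and 0.108 in tc;Sf1ESCs, 6.26 and 2.54 in SCLCs and 8.61 and 6.48 in todPGCLCs. Both differentiated groups lay above both ESC groups. The log2 fold change was 4.71 ± 0.59 (SE) in SCLCs against tc;Sf1ESCs and 5.45 ± 0.58 (SE) in todPGCLCs against tcESCs. Serpinf1 was one of the members with more counts in SCLC replicate 1 than in replicate 2.

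The complement components were scarce, and C2 was the one called. C2, a protease of the classical and lectin pathways, was measured at 0.512 and 0.554 CPM in tcESCs, 0.771 and 0.867 in tc;Sf1ESCs, 6.87 and 7.60 in SCLCs and 0.726 and 0.753 in todPGCLCs. The SCLC libraries stood apart from the other 6, with a log2 fold change of 3.18 ± 0.23 (SE) against tc;Sf1ESCs. C2 and Cfb overlap the gene model Gm20547 on the same strand, so reads shared with it were set aside as ambiguous by the counting and both can be undercounted. C3, the center of the cascade, had 27 and 23 counts in SCLCs, 6 and 16 in todPGCLCs and 0 to 3 in ESCs, a ratio of 48.2 for SCLCs against tc;Sf1ESCs with an exact 95% counting interval of 8.26 to 1942. C4b ranged from 0.344 to 0.799 CPM in all libraries and was called in no comparison, with an interval for its log2 fold change in SCLCs against tc;Sf1ESCs of -1.54 to 0.41. C4b has a near-identical copy, C4a, so its counts are uncertain. Cfb had 4 and 8 counts in SCLCs and 0 to 3 elsewhere, and C6, of the lytic pore, had 5 and 5 in tcESCs, 0 in SCLCs and 1 or 2 in the other libraries.

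Of the complement regulators, Serping1 rose in SCLCs against the other 3 groups and Cd59a in todPGCLCs against tcESCs. Serping1 (C1 inhibitor, which also blocks kallikrein) was measured at 10.7 and 9.91 CPM in tcESCs, 13.3 and 12.2 in tc;Sf1ESCs, 78.5 and 58.1 in SCLCs and 7.30 and 6.51 in todPGCLCs. It was called higher in SCLCs than in tc;Sf1ESCs (log2 2.46 ± 0.15, SE) and than in todPGCLCs (log2 3.44 ± 0.16, SE). Cd59a, which blocks the lytic pore, was measured at 3.62 and 3.46 CPM in tcESCs, 3.05 and 2.89 in tc;Sf1ESCs, 5.40 and 4.92 in SCLCs and 10.2 and 10.8 in todPGCLCs. Its log2 fold change was 1.49 ± 0.16 (SE) in todPGCLCs against tcESCs, and 0.84 ± 0.17 (SE) in SCLCs against tc;Sf1ESCs, which was not called. Cd59b is a related gene of the same family as Cd59a, and how reads divide between them was not tested and is uncertain.

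Cd55 (decay-accelerating factor, which dismantles complement convertases) was measured at 33.8 and 34.0 CPM in tcESCs, 43.0 and 41.1 in tc;Sf1ESCs, 17.4 and 28.0 in SCLCs and 26.5 and 23.9 in todPGCLCs. It was not called in any comparison, and its log2 fold change in SCLCs against tc;Sf1ESCs was -0.84 with a 95% interval of -1.26 to -0.41. Without SCLC replicate 2 it was called lower at -1.22. Cfi, the protease that degrades C3b, had 13 and 25 counts in SCLCs, 1 and 3 in todPGCLCs and 0 to 2 in ESCs.

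The remaining serpins differed in their behavior. Serpinh1 (HSP47, the collagen chaperone of the endoplasmic reticulum), on the minus strand of chromosome 7 at 99345376 to 99353239, was measured at 45.0 and 48.7 CPM in tcESCs, 162.0 and 157.4 in tc;Sf1ESCs, 2450 and 2462 in SCLCs and 153.9 and 212.8 in todPGCLCs. It was called higher in tc;Sf1ESCs (log2 1.78 ± 0.13, SE) and in todPGCLCs (log2 1.89 ± 0.13, SE) than in tcESCs, and in SCLCs than in tc;Sf1ESCs (log2 3.99 ± 0.14, SE). The 2 SCLC libraries were equal within counting error for Serpinh1. Serpine2 (protease nexin 1, an inhibitor of thrombin and of plasminogen activators) was measured at 36.5 and 40.7 CPM in tcESCs, 32.4 and 36.0 in tc;Sf1ESCs, 28.7 and 47.7 in SCLCs and 50.8 and 38.6 in todPGCLCs. No comparison called it, and its log2 fold change in SCLCs against tc;Sf1ESCs was 0.21 with a 95% interval of -0.30 to 0.71.

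Per exon length, as RPKM (CPM divided by the exon length in kilobases), the order of the members differed between groups. In tcESCs Pros1 stood first at 29.9 RPKM, ahead of Serpinh1 at 19.2, Tfpi at 15.1 and F2r at 14.1, and none of these overlapped with the next. In tc;Sf1ESCs Pros1 and Serpinh1 led at 68.2 and 65.4 RPKM. In SCLCs Serpinh1 stood at 1005 RPKM, followed by F3 at 128.0, F2r at 87.2 and Tfpi at 76.4. The libraries of F2r and Tfpi overlapped there. Next came Serping1 at 29.4, F2 at 24.8, Plaur at 23.0 and Plat at 18.2, of which Serping1 overlapped with F2 and F2 with Plaur, whereas Plaur lay above Plat in both libraries. In todPGCLCs Serpinh1 at 75.0 RPKM and Tfpi at 27.2 led, and 6 members from F2r to F3 lay between 4.41 and 6.23.

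**Figure D3:**
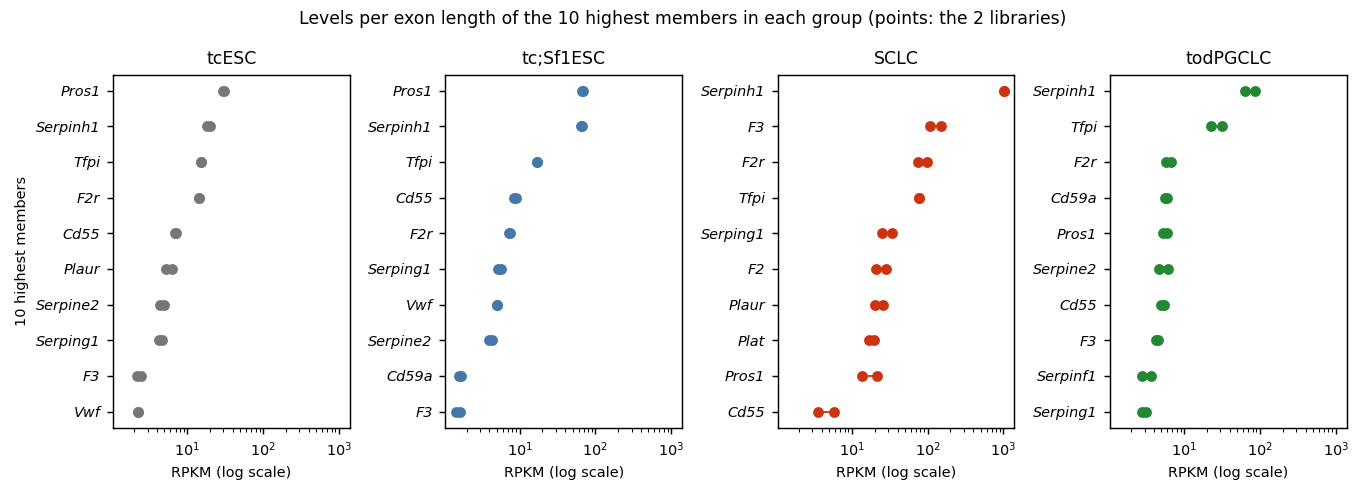
Levels in RPKM (log x axis) of the 10 highest members in each group (y axis, highest on top), with a point for each of the 2 libraries. Pros1 leads in both ESC groups at 29.9 and 68.2 RPKM, and Serpinh1 leads in SCLCs at 1005 and in todPGCLCs at 75.0.

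The 2 SCLC libraries differed in the levels of many members. Of the 29 members with at least 20 counts in the pair, the CPM ratio of replicate 2 to replicate 1 had an exact 95% counting interval above 1 in 9 and below 1 in 7. The share of all genes with such intervals was not computed, so nothing particular to the members is read from these counts. Over all genes these libraries differed at a chi-square of 30.65 per degree of freedom. The 9 in excess in replicate 2 were F10 (ratio 4.42), Serpinf2 (2.32), Proc (2.24), Fgb (2.23), Serpine2 (1.66), Cd55 (1.61), Pros1 (1.56), Plau (1.27) and Plat (1.15). The 7 lower in replicate 2 were Serpinf1 (0.406), Vwf (0.663), F3 (0.710), F2 (0.739), Serping1 (0.741), F2r (0.757) and Plaur (0.789). The intervals of Tfpi (0.992) and Serpinh1 (1.005) included 1. Marker lists of other cell types differed between these libraries as well. The visceral endoderm and yolk sac markers had a median ratio of 1.70, with an interval above 1 for 10 of 11 and below 1 for 1. Among them Ttr had 1240 counts in replicate 1 and 3411 in replicate 2, and Afp 604 and 1400. The parietal endoderm markers had a median of 0.986, with an interval above 1 for 3 of 8 and below 1 for 5, from 0.679 for Snai1 to 1.25 for Pth1r. The medians were 0.575 for Sertoli cell markers (4 of 7 below 1 and 2 above), 0.698 for pluripotent cell markers (6 of 8 below and 1 above) and 0.589 for primordial germ cell markers (7 of 8 below and 1 above). The median ratio was 1.06 over the 29 members and 0.998 over 16344 genes with as many counts. With 1 library on each side this is a comparison of these libraries, the intervals cover counting error only, and the part of these cell types in the levels of the members was not tested.

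**Figure D4:**
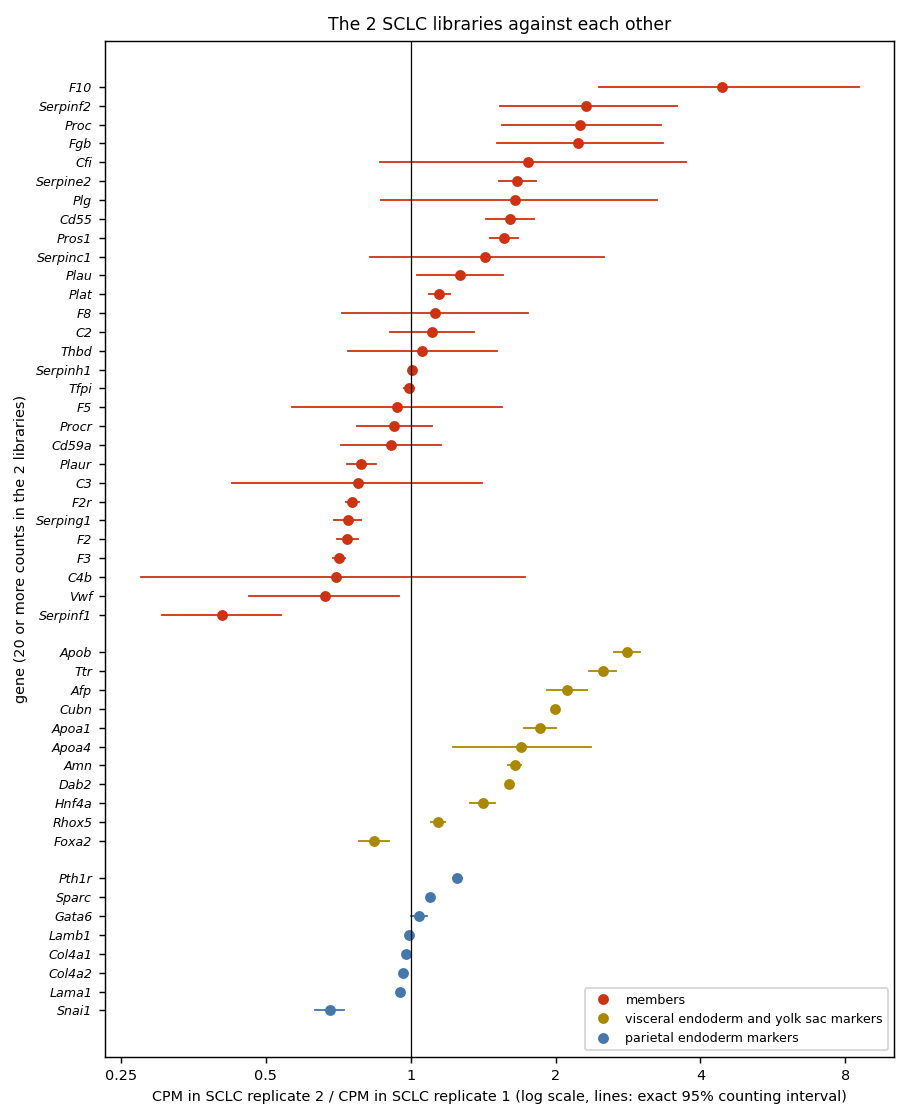
Ratio of CPM in SCLC replicate 2 to that in replicate 1 (log x axis, lines are exact 95% counting intervals) for members and for markers of visceral and parietal endoderm with at least 20 counts in the pair (y axis). F10 at 4.42 and 10 of the 11 visceral endoderm markers, with a median of 1.70, lie to the right of 1, Serpinf1 at 0.406 lies to the left, and parietal endoderm markers lie on both sides of 1 with a median of 0.986.

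Beyond the members, 103 other genes of complement, of coagulation and fibrinolysis and of the serpin family were found, of which 50 were tested. In SCLCs against tc;Sf1ESCs, 22 were called higher and 11 lower, with a median log2 fold change of 0.66. These are 44% and 22% of the 50, beside 24.2% and 18.0% of all genes. By system, the other coagulation and fibrinolysis genes had 11 of 18 tested genes higher and 1 lower, the other complement genes 4 of 17 higher and 4 lower (23.5% each, near the shares of all genes), and the other serpins 7 of 15 higher and 6 lower. In tc;Sf1ESCs against tcESCs 8 of the 50 were higher and 3 lower (16% and 6%, beside 6.13% and 5.85% of all genes). In SCLCs against tcESCs 20 were higher and 12 lower (40% and 24%, beside 24.4% and 18.2%). In todPGCLCs against tcESCs 12 were higher and 7 lower (24% and 14%, beside 18.1% and 11.2%), and in SCLCs against todPGCLCs 20 and 13 (40% and 26%, beside 19.5% and 18.5%).

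The other genes that rose most in SCLCs were Habp2, Hgfac and Serpina10, which passed the count filter only through their SCLC counts. Habp2 (a plasma protease that can activate F7 and uPA) had 8124 and 10443 counts in SCLCs, 1 and 0 in each ESC group and 2 and 3 in todPGCLCs. In SCLCs it thus stood at 306.5 and 359.0 CPM. Hgfac (the activator of hepatocyte growth factor) had 116 and 121 counts in SCLCs, none in ESCs and 2 in each todPGCLC library, at least 38.1-fold higher in SCLCs than in tc;Sf1ESCs. Serpina10 (the protein Z-dependent inhibitor of F10) had 89 and 166 counts in SCLCs and 0 or 1 in the other libraries. The protease Hpn (hepsin) was called higher in todPGCLCs than in tcESCs (log2 3.67 ± 0.19, SE), as was Thbs1 (thrombospondin 1, log2 3.16 ± 0.24, SE), and Hgfac, at 2 counts per library, passed the test there as well.

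Of the intracellular serpins, Serpinb1a, Serpinb1b and Serpinb8 were called lower in SCLCs than in tc;Sf1ESCs. Serpinb1a, an inhibitor of neutrophil proteases, fell from 7.83 and 7.05 CPM in tc;Sf1ESCs to 0.264 and 0.447 in SCLCs, and Serpinb1b from 6.21 and 5.78 to 0.0377 and 0.206. Serpinb8 rose to 5.36 and 5.35 CPM in tc;Sf1ESCs from 0.551 and 0.619 in tcESCs and was at 0.302 and 0.344 in SCLCs. In tc;Sf1ESCs against tcESCs, Kng2 (log2 2.62) and Serpina3m (log2 1.58) were called higher, and Thbs1 (log2 -1.61) and C1s2 (log2 -1.27) lower. C1s2 was also called lower in todPGCLCs than in tcESCs (log2 -1.74), and so was Serpinb1a (log2 -1.77). Serpina3m, at 20.6 and 21.6 CPM in todPGCLCs, was called lower in SCLCs than in todPGCLCs (log2 -3.02). Serpinb1a, Serpinb1b, Serpina3m and C1s2 belong to families of close copies, so their counts are uncertain.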

How the data were processed

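Messenger RNA of 8 libraries was sequenced on a strand-specific, paired-end protocol. The authors filtered the reads with Trim Galore, aligned them to GRCm38 with STAR 2.4.0 and deposited raw read counts per Ensembl gene, made with HTSeq and without normalization. The strand setting of the counting is not given in the sources used here. Of the 46078 IDs, 45229 were named with GENCODE M21. Rows that name no gene (35.6% to 41.6% of all reads, unaligned and not unique ones included) were left out.

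The members and all gene lists were chosen with earlier results of these data known. All 8 libraries were fitted as 4 groups with edgeR 4.0.16 in R 4.3.3 after TMM normalization, over the 16707 genes with a mean count above 10, and tested with the quasi-likelihood test. Genes were called with a fold change above 2 and a Benjamini-Hochberg adjusted p under 0.05. Intervals of log2 fold changes come from the same fit. CPM uses totals on genes and RPKM the union of exons. Against a group at 0 the fold is a lower bound with 3 counts per library, and ratios of few counts have exact binomial intervals, which cover counting error only since PCR copies are not separate molecules. The study describes its experiments in general as biologically replicated. Whether the libraries of a group come from separate cultures is not given for each in the sources used here, so p-values measure the spread between these libraries.

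Members with a mean of at least 5 CPM in a group are given with every value. Of the other pathway genes, up to 3 per direction and comparison with the largest log2 fold changes are named, out of those called and averaging 1 CPM or more over the libraries, apart from 1 gene that is not reported here. Alternatives were RLE size factors, library totals, every gene with at least 1 count, the 4 libraries compared, DESeq2 1.42.0, the replicate number as a block, leaving out each library, and, chosen after seeing the data, a fit of the 6 libraries without todPGCLC and the counts of other pathway genes under each alternative. The fits were tested on simulated data. Promoters were read from RefSeq (GRCm38.p6). A planned search of protein motifs was not run, since no protein table was used here.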

Additional observations from a re-analysis of the deposited data

How the results depend on the processing

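The counts of members called higher kept within 1.5 times their values under every alternative run. The members called lower in tc;Sf1ESCs against tcESCs went from 2 to 1 in the fit of 6 libraries without todPGCLC, and stood at 1 to 2 with each library left out. Those lower in SCLCs against tcESCs ranged from 1 (without tcESC replicate 1 or SCLC replicate 1) to 3 (without SCLC replicate 2). Those lower in SCLCs against todPGCLCs went from 2 to 4 with every gene of at least 1 count and ranged from 1 (without todPGCLC replicate 2) to 3 with a library left out. Of the other pathway genes, those called higher in tc;Sf1ESCs against tcESCs ranged from 2 (without tcESC replicate 1) to 8 with a library left out, those lower went from 3 to 5 with every gene of at least 1 count and ranged from 1 (without tcESC replicate 2) to 4, and those higher in SCLCs against tcESCs went from 20 to 31 with every gene of at least 1 count, where more genes are tested. The other causes were not tested. Library totals moved the median log2 fold change of all genes to 0.11 in todPGCLCs against tcESCs and to -0.15 in SCLCs against todPGCLCs.

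Of the members given with every value, called results kept their call in 856 cases over all alternatives and lost it in 4, those of F2 and F5. None of these called results turned sign. The tally leaves out the tested members at lower levels. Among those, Proc, Thbd, F8, F10 and Fgb lost calls as well, as given with each gene. Results not called turned sign in 11 cases and gained a call in 5, all 5 lower, which were Cd55 in SCLCs against tc;Sf1ESCs and Pros1 in SCLCs against tcESCs without SCLC replicate 2, Serpinf1 (without SCLC replicate 1) and Cd59a (library totals) in SCLCs against todPGCLCs, and F5 in tc;Sf1ESCs against tcESCs when no count filter was set. With library totals, Serpine2 in SCLCs against tcESCs went to -0.0131. With each library left out, Serpine2 ranged from -0.363 to 0.38 in SCLCs against tcESCs, from -0.202 to 0.54 in SCLCs against tc;Sf1ESCs, from -0.069 to 0.33 in todPGCLCs against tcESCs and from -0.502 to 0.239 in SCLCs against todPGCLCs. Serpinf1 in tc;Sf1ESCs against tcESCs ranged from -0.549 to 0.507, and Cd55 in SCLCs against todPGCLCs from -0.394 to 0.298. Deviations of same-numbered libraries correlated at -0.03 to 0.06. This shows no large shift shared by them, but cannot show whether they were prepared together. With the replicate block the members called stayed at 18 higher and 2 lower in SCLCs against tc;Sf1ESCs and 19 and 2 against tcESCs. They also stayed at 5 and 2 in tc;Sf1ESCs against tcESCs, 9 and 5 in todPGCLCs against tcESCs, and 16 and 2 in SCLCs against todPGCLCs. Depth limits the 15 members that were not tested, for which a level under 0.0978 to 0.118 CPM cannot be told from 0.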

Other observations

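C1s1, a protease of the first complement complex, was chosen after its values were seen. It had 100 and 101 counts in the todPGCLC libraries and no count in the other 6, which puts todPGCLCs at least 34.4-fold above tcESCs and SCLCs. Its close copy C1s2 was present in all libraries, with 52 and 57 counts in tcESCs and 14 and 19 in todPGCLCs. The todPGCLCs come from a different ESC line, so line and cell type cannot be told apart here.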
